A study of Mus musculus with 6 samples.

Results

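The genes described here are 35 amino acid transporters of the mouse, taken from the solute carrier families SLC1, SLC3, SLC6, SLC7, SLC16, SLC36, SLC38 and SLC43 and followed in hepatocytes before and after partial hepatectomy (PHx), the surgical removal of a large part of the liver. They were found by gene name in the GENCODE M21 annotation and matched to the count files by versioned Ensembl identifier, which gave 35 of the 55450 genes in the files. Of these, 30 had at least 10 counts in at least 3 libraries and were tested, among 17037 genes tested in all. The other 5, Slc1a1, Slc1a3, Slc7a9, Slc7a10 and Slc7a11, are given by their counts only. Gene counts per library were between 31419443 and 36346220, so that 3 counts, used here as the floor of detection, corresponded to 0.0825 to 0.0955 CPM (counts scaled to the library total).

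The 6 libraries of bulk RNA-Seq were 3 at 0 h, from undamaged liver, and 3 at 48 h after PHx. All hepatocytes came from male C57BL/6 mice on a normal diet, which the labels put at 10 to 12 weeks of age at surgery and the study's methods at a slightly younger age, and were isolated by collagenase perfusion before RNA was extracted with TRIzol. The libraries within a time point were described as biological replicates from separate hepatocyte preparations. The 0 h mice were healthy and no sham operation was described for them, so effects of the operation itself and of the regrowth of the liver cannot be told apart. The transcripts of many cells were read together in each library, so fewer cells of a type and less RNA per cell cannot be told apart.

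Amino acids cross membranes through carriers that differ in what drives them. Sodium coupled carriers, such as those of SLC38 and SLC6, can concentrate their substrates inside the cell. Exchangers, such as some members of SLC1 and SLC7, swap an external for an internal amino acid. The facilitated carriers of SLC43 and SLC16 let amino acids run down their gradient. Part of the SLC7 family works only as a light chain bound to a heavy chain of SLC3, which carries the pair to the membrane. The hepatocyte takes up glutamine, alanine and other amino acids from portal blood for glucose production, urea synthesis and protein synthesis, and some SLC36 and SLC38 members sit on lysosomes, where they take part in amino acid signaling to the kinase mTORC1.

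A pair of short promoter motifs bears on how these genes are known to be controlled. The C/EBP-ATF response element, with the core letters TGATGNAA, is bound by ATF4 when amino acids are scarce, and the E-box CACGTG is read by TFEB, a factor of lysosomal genes, and by MYC among others. Both strands were searched in RefSeq promoter windows of the GRCm38.p6 assembly, from 250 bases before to 50 bases after each start, which were at hand for 27 of the 35 genes. Slc1a5, Slc38a1, Slc38a3, Slc43a3, Slc6a6, Slc6a8, Slc7a2 and Slc7a5 had no window. The C/EBP-ATF core was present in 3 of the 27 genes, against 4.51% of the 27025 genes with a window, and the pieces are shown because Slc1a4 had one of the largest rises described further on. Capitals mark the match, with 20 bases on either side, on the strand of the gene.
Slc1a4, chr11:20332690-20332737, minus strand: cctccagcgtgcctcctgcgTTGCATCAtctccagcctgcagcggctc
Slc7a11, chr3:50443633-50443699, minus strand: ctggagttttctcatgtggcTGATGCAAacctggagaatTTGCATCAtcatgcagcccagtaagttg
Slc7a7, chr14:54417918-54417965, minus strand: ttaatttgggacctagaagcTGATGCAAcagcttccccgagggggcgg
Slc7a7, chr14:54418058-54418105, minus strand: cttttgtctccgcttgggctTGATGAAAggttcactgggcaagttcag

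The match in Slc1a4 began 4 bases before the RefSeq start and lay on the opposite strand. Slc7a11 held a pair of matches on opposite strands, 66 and 47 bases before its start. Slc7a7 held one match 1 base and another 141 bases before one of its starts.
The E-box was also present in 3 of the 27 genes, against 8.09% of genes with a window, and these are shown because 2 of the 3 encode lysosomal carriers.
Slc36a1, chr11:55204289-55204362, plus strand: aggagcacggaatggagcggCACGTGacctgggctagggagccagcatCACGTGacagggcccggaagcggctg
Slc38a7, chr8:95853500-95853545, minus strand: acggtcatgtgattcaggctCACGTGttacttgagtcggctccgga
Slc43a1, chr2:84840239-84840284, plus strand: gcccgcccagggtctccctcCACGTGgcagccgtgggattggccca
The E-boxes of Slc36a1 lay 31 and 3 bases before its start, that of Slc38a7 lay 34 bases before and that of Slc43a1 lay 64 bases before. At 48 h, of the 3 genes with the C/EBP-ATF core, Slc1a4 rose, Slc7a7 did not pass the test (log2 fold change 0.50) and Slc7a11 was too low to be tested, and of the 3 with an E-box, Slc36a1 and Slc38a7 fell and Slc43a1 rose. The fall of Slc36a1 was small, and its call was lost in several alternatives described further on. These letter matches are descriptions of the windows and say nothing of whether a factor was bound.

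At 48 hours after PHx, the transporters that carried most of the transporter transcripts in undamaged liver were lower, and several that were scarce were higher. Slc38a3 and Slc38a4, the most abundant of the set, fell to 0.583 and 0.489 times their 0 h level, whereas Slc7a6, Slc1a4, Slc1a5 and Slc6a8 rose to 3.8, 2.96, 2.76 and 2.21 times theirs. With edgeR's quasi-likelihood test and Benjamini-Hochberg adjustment over all genes at 0.05, 8 of the 30 tested members were higher, 14 were lower and 8 did not pass. Over all 17037 genes tested, 21.4% were higher and 19.3% lower, and the shares of the tested members were 26.7% and 46.7%. The share of members that rose was near that of all genes, and the share that fell was above it. The median log2 fold change of the tested members was -0.17, beside -0.0033 for all genes tested.

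At a log2 fold change of at least 1 in either direction, 4 members were higher and 3 were lower, and 9.69% and 7.94% of all genes tested passed those same rules. Among the 30 tested members, all 48 h libraries lay above all 0 h libraries for 8 and below them for 16, where 27.8% and 25.0% of all genes tested were separated in those directions. The 16 were the 14 genes called lower plus Slc3a2 and Slc38a10, which did not pass the test. Of the 14 tested members with a mean over all libraries of 20 TPM (counts divided by exon length and scaled to the library) or more, 1 was higher, 10 were lower and 3 did not pass, and of the 16 under 20 TPM, 7 were higher, 4 were lower and 5 did not pass. The bound of 20 TPM was chosen after these values were seen. The shares of all genes called on either side of that bound were not computed. Whether this split is particular to the transporters was thus not tested.

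**Figure D1:**
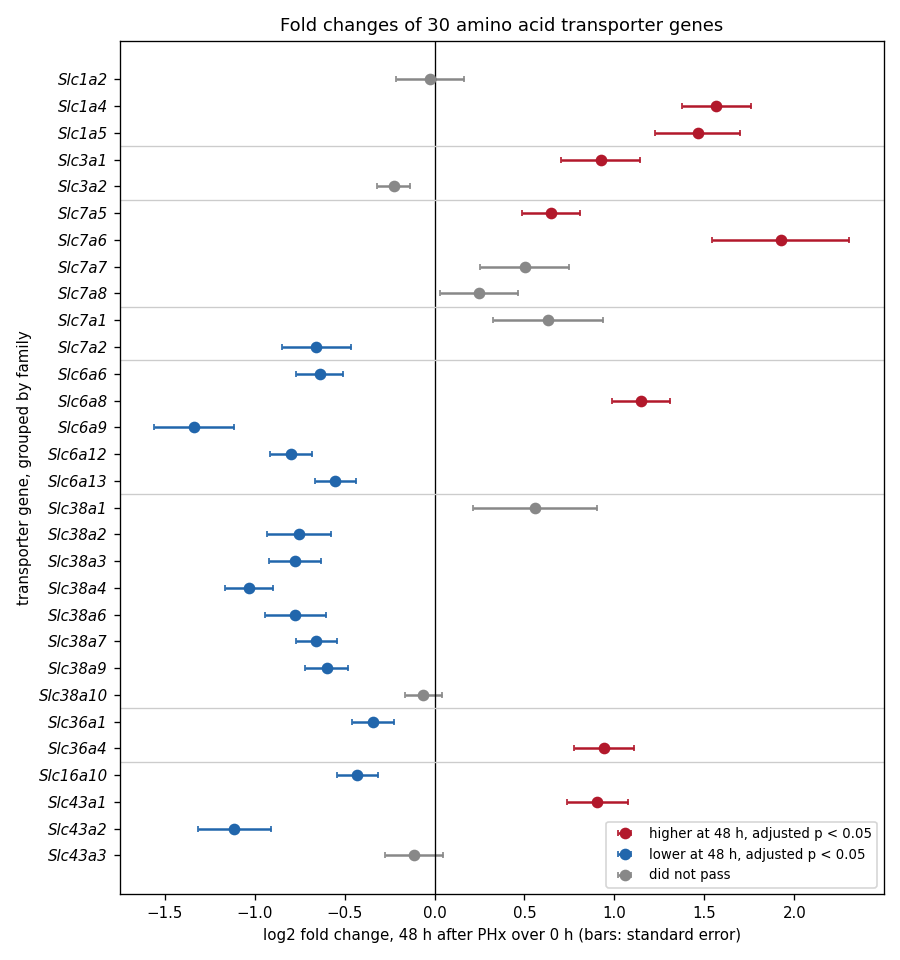
Log2 fold change at 48 h after PHx against 0 h (horizontal axis) of the 30 tested transporters, grouped by family, with bars of 1 SE and colour for the edgeR call at an adjusted p of 0.05. Of the 30, 8 lie to the right as higher and 14 to the left as lower, and no SLC38 gene is called higher.

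The SLC38 family holds sodium coupled neutral amino acid transporters, and 6 of its 8 tested members fell, with none higher (19.3% and 21.4% of all genes). Slc38a3 (chromosome 9, 107650634 to 107669530, minus strand, mm10), the system N carrier that moves glutamine, histidine and asparagine in hepatocytes, was at 2529, 2610 and 2882 TMM-normalized CPM in the 0 h libraries and at 1608, 1648 and 1424 CPM at 48 h. Every 48 h library was lower than every 0 h library. The log2 fold change was -0.78 (SE 0.145, edgeR adjusted p = 0.0018). Slc38a4 (chromosome 15, 96994820 to 97055956, minus strand), a system A carrier found mainly in liver that takes alanine and other neutral amino acids, was at 1595, 1706 and 1749 CPM at 0 h and at 795, 885 and 791 CPM at 48 h. Its log2 fold change was -1.03 (SE 0.135, adjusted p = 0.000188), the only SLC38 change of at least 1 on the log2 scale. The replicate spread was small beside the difference, with means of 1684 ± 79.6 CPM and 824 ± 53.4 CPM (SD, n = 3).

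Slc38a2, the widely expressed system A carrier that cells raise when amino acids run short, lies 295.1 kb from Slc38a4 on chromosome 15 (96687392 to 96699730). It was at 419, 365 and 393 CPM at 0 h and at 303, 210 and 185 CPM at 48 h, a log2 fold change of -0.75 (SE 0.179, adjusted p = 0.00706). The 48 h libraries were more spread than the 0 h libraries and all lay below them. Slc38a1, a further system A carrier 44.5 kb from Slc38a2 on the same strand, was low in every library. It was at 0.613, 1.19 and 0.693 CPM at 0 h and at 0.892, 1.68 and 1.11 CPM at 48 h, and with overlapping groups it did not pass (log2 fold change 0.56, SE 0.346, adjusted p = 0.225). The 3 system A genes on this stretch of chromosome 15 therefore did not give the same call.

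Among the less abundant SLC38 members, Slc38a7 and Slc38a9 encode lysosomal proteins, the first an exporter of glutamine and asparagine and the second the arginine sensor that binds the Rag GTPase machinery of mTORC1. Slc38a7 was at 43.1, 47 and 42.6 CPM at 0 h and at 24.8, 27.4 and 31.9 CPM at 48 h (log2 fold change -0.66, SE 0.116, adjusted p = 0.00127). Slc38a9 was at 20.3, 21 and 18.4 CPM and then at 11.7, 13.5 and 14.2 CPM (log2 fold change -0.60, SE 0.121, adjusted p = 0.00287, and -0.40 with an adjusted p of 0.0375 under scaling by library size alone). Both were lower in every 48 h library. Slc38a6, a member whose substrates are less well known, also fell (log2 fold change -0.77, SE 0.17, adjusted p = 0.0046), from 6.95 to 9.13 CPM at 0 h down to 4.16 to 5.46 CPM. Slc38a10 differed least of the family, at 137 to 139 CPM at 0 h and 127 to 136 CPM at 48 h, and did not pass (log2 fold change -0.06, SE 0.101, adjusted p = 0.655), with a sign that turned when libraries were scaled by size alone (0.14).

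**Figure D2:**
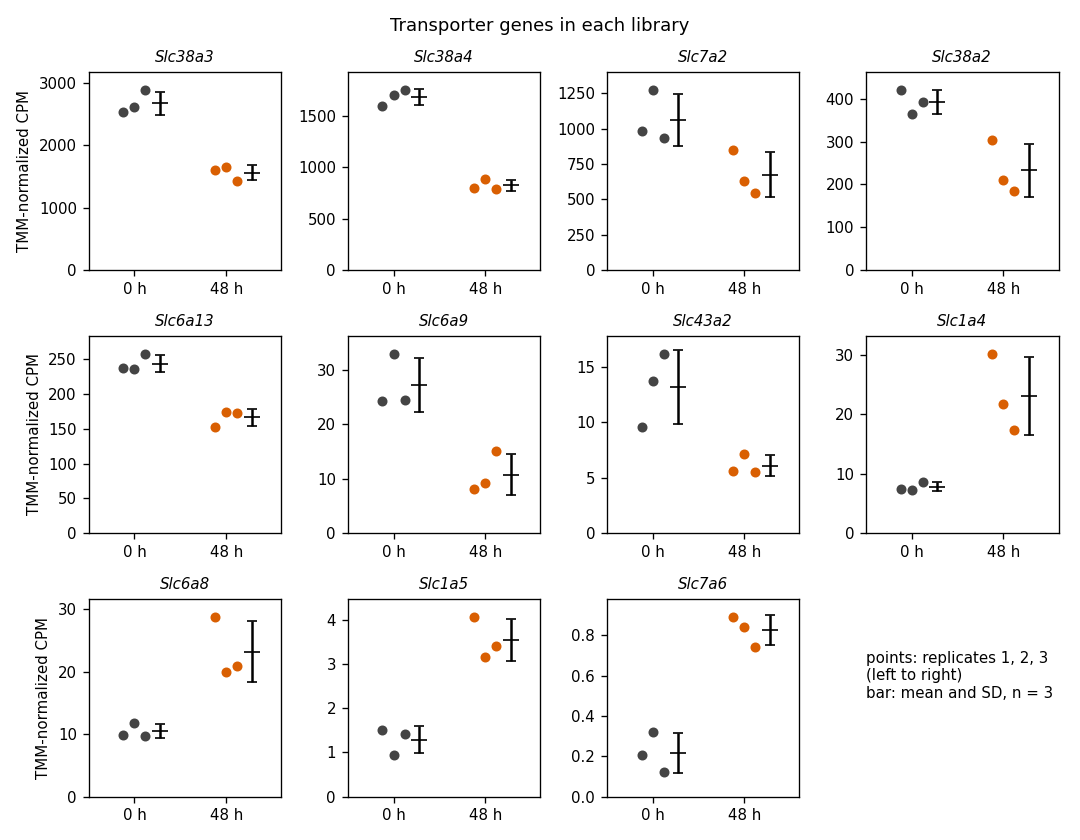
TMM-normalized CPM (vertical axis from 0, its scale set for each gene) in each of the 3 libraries at 0 h and 3 at 48 h after PHx for the members with the highest levels or with a change of at least 1 on the log2 scale. Points are replicates 1, 2 and 3 from left to right and bars are the mean and SD (n = 3), and in all of these genes the 48 h libraries lie wholly above or wholly below the 0 h libraries.

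The SLC6 family couples transport to sodium and chloride, and all 5 of its members passed the test, 4 lower and 1 higher (19.3% and 21.4% of all genes). Slc6a13 (chromosome 6, 121300227 to 121337733, plus strand), the hepatic carrier of GABA and taurine known as GAT2, was at 238, 235 and 258 CPM at 0 h and at 153, 173 and 172 CPM at 48 h. The groups did not overlap, and the log2 fold change was -0.55 (SE 0.115, adjusted p = 0.00334), or -0.34 with scaling by library size alone (adjusted p = 0.0456). Its neighbour Slc6a12, which starts 5.3 kb further along the same strand and carries betaine and GABA, was at 107, 96.2 and 119 CPM and then at 61.5, 67 and 56.8 CPM (log2 fold change -0.80, SE 0.118, adjusted p = 0.000414). Both genes of this pair were lower in every 48 h library. Slc6a6, the taurine transporter, went from 256 to 315 CPM at 0 h to 176 to 203 CPM at 48 h (log2 fold change -0.64, SE 0.128, adjusted p = 0.00269).

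The largest fall of any member was that of Slc6a9 (chromosome 4, 117834506 to 117875198, plus strand), the glycine transporter GlyT1. It was at 24.4, 33 and 24.4 CPM at 0 h and at 8.11, 9.18 and 15.1 CPM at 48 h, 0.396 times the 0 h level. The highest 48 h library was below the lowest 0 h library, and the fall passed the test (SE 0.223 on the log2 scale, adjusted p = 0.000897). Exons of genes on the opposite strand covered 30.2% of its exons, and those genes were all at or under 0.33 CPM. Slc6a8 (chromosome X, 73673150 to 73682502, plus strand), which carries creatine and not a protein amino acid, went the other way. It was at 9.91, 11.7 and 9.77 CPM at 0 h and at 28.8, 20 and 20.9 CPM at 48 h (log2 fold change 1.15, SE 0.16, adjusted p = 0.000282), with every 48 h library above every 0 h library.

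Cationic amino acids such as arginine and lysine enter through Slc7a1 and Slc7a2. Slc7a2 (chromosome 8, 40862396 to 40922308, plus strand), the low affinity carrier typical of hepatocytes, was at 980, 1270 and 933 CPM at 0 h and at 849, 628 and 541 CPM at 48 h. It was lower at 48 h without overlap (log2 fold change -0.66, SE 0.193, adjusted p = 0.0202), but both groups were widely spread. The call was lost without 0 h replicate 2 (adjusted p = 0.0615), without 48 h replicate 2 (0.0804) and without 48 h replicate 3 (0.0728), and under scaling by library size alone (0.0617). Exons of Gm26584 on the opposite strand overlapped 6.95% of the exons of Slc7a2, and Gm26584 fell from 188 to 58 CPM on average (log2 fold change -1.69, adjusted p = 0.000204). The strand setting of the counting was not given in the sources used here, and the part of these reads in the value of Slc7a2 was not tested. Slc7a1, the carrier used by most dividing cells, was scarce, at 0.477 to 0.814 CPM at 0 h and 0.8 to 1.01 CPM at 48 h, and did not pass (log2 fold change 0.63, SE 0.306, adjusted p = 0.127).

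The heavy chains Slc3a1 and Slc3a2 had opposite signs, and only the first passed. Slc3a1, the rBAT chain that pairs with Slc7a9 to take up cystine and cationic amino acids, was at 23.8, 25.3 and 31.3 CPM at 0 h and at 71.1, 36 and 45.6 CPM at 48 h. All 48 h libraries were higher, with 48 h replicate 1 well above the others, and the log2 fold change was 0.92 (SE 0.219, adjusted p = 0.00698). Without that library it was 0.60 (adjusted p = 0.0129). Prepl, whose exons on the opposite strand overlap 26.5% of those of Slc3a1, was also higher (33 and 44.6 CPM on average, log2 fold change 0.43, adjusted p = 0.0226), and its part in the rise of Slc3a1 was not tested. Slc3a2, the 4F2 or CD98 heavy chain that serves the other light chains, was at 45.8, 47.7 and 48.8 CPM and then at 41, 40.1 and 40.4 CPM. Its libraries did not overlap and were close together, but the test was not passed (log2 fold change -0.23, SE 0.0915, adjusted p = 0.0702). As TPM within the same library, the ratio of Slc3a1 to Slc3a2 was 0.808, 0.824 and 0.998 at 0 h and 2.7, 1.4 and 1.75 at 48 h. The chains were nearly level in 0 h replicate 3, and Slc3a1 was above Slc3a2 in every 48 h library.

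Of the 7 light chains, 4 were high enough to be tested and 2 of them rose (21.4% of all genes). Slc7a6 (chromosome 8, 106168857 to 106198706, plus strand), an exchanger of cationic for neutral amino acids, had the largest rise of any member, a log2 fold change of 1.92 (SE 0.38, adjusted p = 0.0025). It rested on few reads, 6, 10 and 4 counts at 0 h and 30, 30 and 26 counts at 48 h, or 0.204, 0.323 and 0.121 CPM against 0.892, 0.84 and 0.743 CPM. Even so, each 48 h library was above each 0 h library. Slc7a5, the LAT1 chain that exchanges glutamine for leucine and other large amino acids, was at 4.36, 5.64 and 4.28 CPM at 0 h and at 7.88, 7.39 and 7.15 CPM at 48 h (log2 fold change 0.65, SE 0.162, adjusted p = 0.00908).

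Slc7a7, a close relative of Slc7a6, and Slc7a8, the LAT2 chain, did not pass, with log2 fold changes of 0.50 (SE 0.247, adjusted p = 0.131) and 0.25 (SE 0.216, adjusted p = 0.389). With 1 library left out, Slc7a7 lay between 0.28 and 0.73 and Slc7a8 between 0.072 and 0.45. The edgeR test was passed by Slc7a7 without 0 h replicate 2 (adjusted p = 0.0436). Slc7a7 ranged from 2.83 to 4.39 CPM at 0 h and from 3.66 to 6.12 CPM at 48 h, and Slc7a8 from 3 to 5.06 CPM and from 4.04 to 5.26 CPM, both with overlap. The partner of Slc3a1, Slc7a9, had 1, 1 and 0 counts at 0 h and 11, 2 and 3 counts at 48 h. Its heavy chain thus rose while its own transcript was at or under the 3-count floor in 5 of the 6 libraries. The cystine and glutamate exchanger Slc7a11 had 1, 1 and 0 counts and then 6, 2 and 3, and the small neutral exchanger Slc7a10 had 0, 1 and 1 and then 3, 2 and 7. No fold is given for these genes, whose 0 h libraries were all under the floor.

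In SLC1, the exchangers of alanine, serine and cysteine rose and the glutamate carriers did not pass or were too low to test. Slc1a4 (chromosome 11, 20302180 to 20332713, minus strand), the exchanger ASCT1 with the promoter piece printed above, was at 7.53, 7.22 and 8.65 CPM at 0 h and at 30.2, 21.8 and 17.4 CPM at 48 h. Its means were 7.8 ± 0.751 CPM and 23.1 ± 6.52 CPM (SD, n = 3), and the log2 fold change was 1.57 (SE 0.193, adjusted p = 0.000129). Slc1a5 (chromosome 7, 16781340 to 16798274, plus strand), the glutamine exchanger ASCT2 used by many proliferating cells, was at 1.5, 0.935 and 1.42 CPM at 0 h and at 4.07, 3.16 and 3.4 CPM at 48 h (log2 fold change 1.46, SE 0.238, adjusted p = 0.000774). Neither gene overlapped between time points. Per exon length, Slc1a5 was at 0.796 TPM at 0 h and 2.63 TPM at 48 h on average, beside 1315 and 917 TPM of the glutamine carrier Slc38a3.

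Slc1a2, the glutamate transporter GLT-1 of the pericentral hepatocyte, was at 153, 229 and 168 CPM at 0 h and at 144, 175 and 222 CPM at 48 h. The groups overlapped throughout and no difference was called (log2 fold change -0.02, SE 0.189, adjusted p = 0.935), with a sign that turned when 0 h replicate 2 (0.16) or 48 h replicate 1 (0.11) was left out, and under scaling by library size alone (0.18). The glutamate carriers Slc1a1 and Slc1a3 were not tested. Slc1a1 had 5, 6 and 6 counts at 0 h and 2, 5 and 3 at 48 h, and Slc1a3 had 1, 4 and 5 and then 2, 7 and 5.

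The SLC36 genes moved apart. Slc36a1, a lysosomal exporter of small neutral amino acids linked to mTORC1, was at 131, 105 and 123 CPM at 0 h and at 90.2, 94.5 and 98.2 CPM at 48 h. The difference was small (log2 fold change -0.34, SE 0.116, adjusted p = 0.0362), and the call was lost when any one of 0 h replicates 1 and 3 and 48 h replicates 1, 2 and 3 was left out (adjusted p from 0.0558 to 0.123). It was also lost with the replicate number as a block (0.0756) and under scaling by library size alone (log2 fold change -0.14, adjusted p = 0.39). Slc36a4, a high affinity carrier of proline and tryptophan, rose from 7.12, 9.64 and 7.48 CPM to 18.6, 13.8 and 14.2 CPM (log2 fold change 0.94, SE 0.168, adjusted p = 0.00134), without overlap.

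Among facilitated carriers, Slc43a1 and Slc43a2, both of which carry branched chain and aromatic amino acids, changed in opposite directions. Slc43a1 (chromosome 2, 84838850 to 84863594, plus strand), the LAT3 gene with an E-box printed above, was at 13.7, 10.3 and 14.2 CPM at 0 h and at 29.4, 20.6 and 21.6 CPM at 48 h (log2 fold change 0.91, SE 0.171, adjusted p = 0.00191). Slc43a2 (chromosome 11, 75531694 to 75577575, plus strand), the LAT4 gene, was at 9.57, 13.8 and 16.2 CPM and then at 5.65, 7.17 and 5.49 CPM (log2 fold change -1.11, SE 0.201, adjusted p = 0.00147). Per exon length, Slc43a1 was above Slc43a2 in every library, at 4.8 to 6.28 TPM beside 2.48 to 4.08 TPM at 0 h and at 11.3 to 15.3 TPM beside 1.67 to 2.23 TPM at 48 h. Slc16a10, the aromatic amino acid carrier TAT1, fell from 180, 207 and 199 CPM to 154, 144 and 137 CPM (log2 fold change -0.43, SE 0.113, adjusted p = 0.0121), a call that scaling by library size alone ended (-0.23, adjusted p = 0.132). Slc43a3, which is known to carry purine nucleobases, ranged from 10.6 to 15.7 CPM at 0 h and from 11.9 to 13.9 CPM at 48 h and did not pass (log2 fold change -0.11, SE 0.16, adjusted p = 0.608), again with a sign that turned under scaling by library size alone (0.091).

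Levels were compared between genes as TPM, which divides counts by exon length. The order at the top was the same at both time points. Slc38a3 led with 1315 ± 65.7 TPM at 0 h and 917 ± 53.7 TPM at 48 h (SD, n = 3), followed by Slc38a4 with 1026 ± 47.3 and 601 ± 47.3 TPM and by Slc7a2 with 302 ± 59.9 and 227 ± 44 TPM. Slc6a13 at 218 ± 5.76 and 178 ± 19 TPM and Slc38a2 at 115 ± 7.22 and 81.3 ± 18.3 TPM came next. Each of these neighbours in the order was separated in all 3 libraries of its time point except Slc7a2 and Slc6a13 at 48 h, where the lowest library of Slc7a2 was at 191 TPM and the highest of Slc6a13 at 191.5 TPM. At 0 h 5 genes were above 100 TPM, 10 between 10 and 100, 11 between 1 and 10 and 9 under 1 TPM, and at 48 h these counts were 4, 13, 10 and 8. Slc3a1 moved from rank 13 to rank 6 of the 35 and Slc6a9 from rank 15 to rank 20. The 48 h rank of Slc3a1 leaned on replicate 1, at 93.1 TPM beside 49.5 and 64.7 TPM in replicates 2 and 3.

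The make-up of the transporter transcripts followed from these levels. The TPM of the 35 genes summed to 3525 ± 150.4 at 0 h and 2573 ± 67.6 at 48 h (SD, n = 3). Slc38a3 and Slc38a4 together held 66.1%, 65.3% and 67.7% of that sum in the 0 h libraries and 56.8%, 61.5% and 58.5% at 48 h, with no overlap. Most of the difference lay in Slc38a4, which went from 29.1% to 23.3%, while Slc38a3 went from 37.3% to 35.6%, and the ratio of Slc38a3 to Slc38a4 was 1.28, 1.24 and 1.33 at 0 h and 1.63, 1.5 and 1.45 at 48 h. The 8 members called higher held 1.54% ± 0.0806 of the sum at 0 h and 5.09% ± 1.25 at 48 h. These members were thus a minor part of the transporter transcripts at both time points. The sum and the shares contain the members chosen by the test, and no test was run on them.

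**Figure D3:**
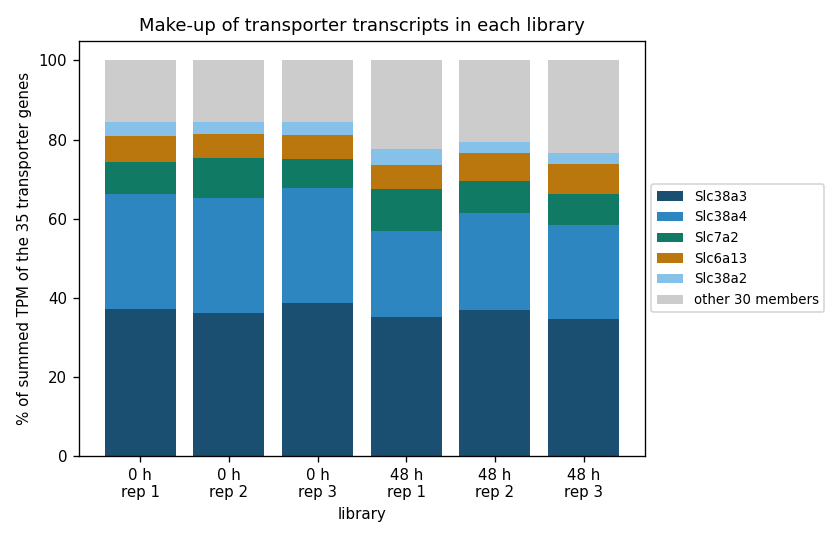
Share of the summed TPM of the 35 transporter genes (vertical axis, percent) held by each of the 5 most abundant members and by the other 30 together, in each library. Slc38a3 and Slc38a4 together take 65.3% to 67.7% at 0 h and 56.8% to 61.5% at 48 h.

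Genes around the transporters were read from 5 lists that are not part of the 35. Of 23 other amino acid transporters, mostly kidney, gut and brain carriers, 19 were too low to test and 2 of the 4 tested fell, with none higher (19.3% and 21.4% of all genes). The 2 were Slc15a4, a lysosomal carrier of histidine and peptides (41.6, 43.9 and 44.5 CPM against 24.8, 27.7 and 22.7 CPM, log2 fold change -0.79, SE 0.107, adjusted p = 0.000236), and Ctns, the lysosomal cystine exporter (30.7, 29.7 and 30.7 CPM against 16.8, 19.1 and 20.4 CPM, log2 fold change -0.69, SE 0.108, adjusted p = 0.000584).

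Of 9 mitochondrial amino acid carriers, 8 were tested, 1 was higher and 1 was lower (12.5% each, under the 21.4% and 19.3% of all genes), with a median log2 fold change of -0.13. The count lower was 2 when 0 h replicate 2 or 48 h replicate 1 was left out. Slc25a12, the aspartate and glutamate carrier of the malate-aspartate shuttle in excitable tissues, rose (log2 fold change 0.56, adjusted p = 0.00278), while Slc25a13, the liver form of the same carrier, did not pass (0.09, adjusted p = 0.633). Slc25a38, which brings glycine into mitochondria for heme synthesis, fell (log2 fold change -0.65, adjusted p = 0.00258), as did the plasma membrane glycine transporter Slc6a9.

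In the list of enzymes of glutamine and glutamate, all 11 genes were tested, 5 were higher and 3 lower (45.5% and 27.3%, beside 21.4% and 19.3% of all genes), with a median log2 fold change of 0.01. The count higher was 3 without 0 h replicate 1, 2 or 3, 4 without 48 h replicate 1 and 2 without 48 h replicate 2 or 3. Glul, the glutamine synthetase of pericentral hepatocytes, was at 318, 231 and 320 CPM at 0 h and at 361, 424 and 458 CPM at 48 h (log2 fold change 0.52, SE 0.159, adjusted p = 0.0254). Gls2, the liver glutaminase that releases ammonia from glutamine, was at 291, 254 and 324 CPM and then at 178, 163 and 118 CPM (log2 fold change -0.92, SE 0.167, adjusted p = 0.0015). The glutamine carrier Slc38a3 and the liver glutaminase were thus both lower, and the synthetase was higher. Oat, ornithine aminotransferase, rose (log2 fold change 1.17, adjusted p = 0.000241), and Gpt and Got1, the alanine and aspartate aminotransferases, fell (-0.81, adjusted p = 0.00102, and -0.79, adjusted p = 0.0354). Got1 overlapped between time points, at 398, 247 and 387 CPM at 0 h and at 262, 211 and 122 CPM at 48 h.

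Genes of the amino acid response, which ATF4 drives when uncharged tRNA accumulates, did not move as one. Of 27 genes, 26 were tested, 8 were higher and 6 lower, with a median log2 fold change of 0.18. These were 30.8% and 23.1% of those tested, not far from the 21.4% and 19.3% of all genes. Psat1 of serine synthesis rose by a log2 fold change of 2.68 (SE 0.35, adjusted p = 0.000187), Mthfd2 of mitochondrial folate metabolism by 2.24 (SE 0.27, adjusted p = 0.000111), and Asns, asparagine synthetase, by 2.58 (SE 0.469, adjusted p = 0.00153), from 4.16, 3.06 and 1.27 CPM to 28.9, 12.2 and 9.26 CPM. The same list held the falls of Chac1, which degrades glutathione (-2.46, SE 0.341, adjusted p = 0.000274), of Vldlr, a lipoprotein receptor (-1.89, SE 0.437, adjusted p = 0.00604), and of Trib3, a feedback inhibitor of the response (-1.62, SE 0.282, adjusted p = 0.00113). Few reads lay behind Psat1, with 13, 8 and 7 counts at 0 h and 85, 56 and 61 at 48 h. Vldlr was also low, with 20, 58 and 61 counts and then 16, 17 and 8. Atf4 itself was at 152, 138 and 152 CPM at 0 h and at 123, 108 and 81.3 CPM at 48 h (log2 fold change -0.50, SE 0.149, adjusted p = 0.0215).

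Of 29 genes through which mTORC1 senses amino acids, 28 were tested, 2 were higher and 8 lower, and the median log2 fold change was -0.04. These were 7.14% and 28.6% of those tested, beside 21.4% and 19.3% of all genes, and scaling by library size alone turned the balance to 6 higher and 3 lower. The count higher was 1 without 0 h replicate 1 or 48 h replicate 2 or 3, and 0 without 0 h replicate 3. The largest fall was that of Flcn, the folliculin that activates RagC and RagD, from 31.2, 31.1 and 33.1 CPM to 13.3, 11.5 and 16.2 CPM (log2 fold change -1.21, SE 0.133, adjusted p = 6.02e-05). Tsc1, an inhibitor of mTORC1, and Sesn3, a leucine sensor family gene, also fell (-0.68, adjusted p = 0.000633, and -0.60, adjusted p = 0.0102). The 2 that rose were the mTORC1 subunit Mlst8 (0.46, adjusted p = 0.0291) and Depdc5, a subunit of the GATOR1 inhibitor (0.36, adjusted p = 0.0134).

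**Figure D4:**
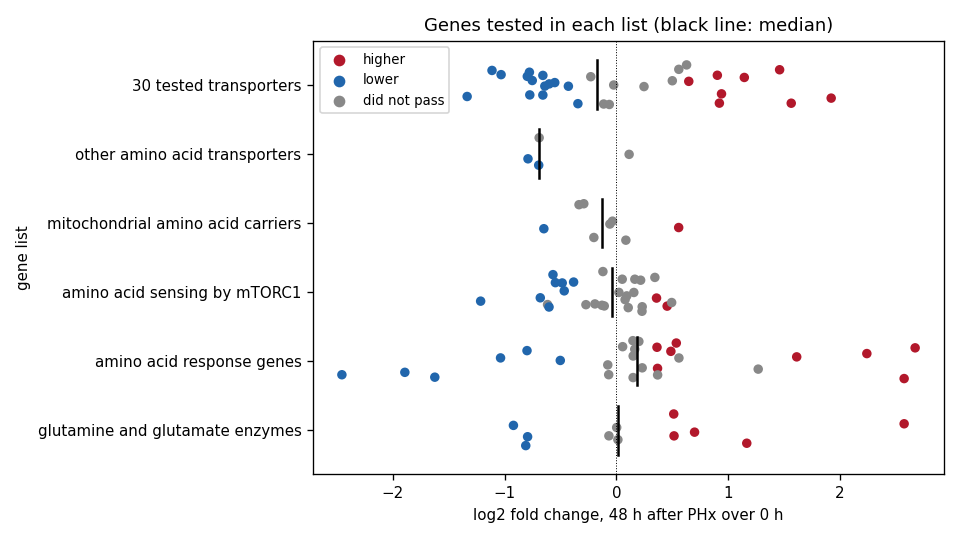
Log2 fold change at 48 h against 0 h (horizontal axis) of each tested gene among the 30 transporters and in the 5 related lists (vertical axis), with points coloured by the edgeR call at an adjusted p of 0.05 and a black line at each median. The transporters and the amino acid response genes hold calls in both directions, with medians of -0.17 and 0.18.

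Markers of other liver cells were present at low levels and some moved with time. All 16 hepatocyte markers, among them Alb and Apob, were above the floor in every library and together took 11.5% to 13.4% of gene counts at 0 h and 9.59% to 11.7% at 48 h. Of the 16, 12.5% were called higher and 25% lower, and these shares and the marker calls that follow stand beside 21.4% higher and 19.3% lower over all genes. The 14 endothelial markers were all above the floor, and 13 of them were lower at 48 h, their summed level going from 326 to 512 CPM at 0 h to 221 to 252 CPM at 48 h (two-sided exact permutation p = 0.1, the smallest possible with 3 against 3). The 10 stellate cell markers summed to 123 to 191 CPM and then to 86.7 to 109 CPM, with 2 lower and 1 higher, and the 12 Kupffer cell markers to 90.2 to 135 CPM and then to 124 to 154 CPM, with 3 higher and 1 lower. As a share of gene counts, the stellate markers overlapped between time points, at 0.0115% to 0.0181% and 0.00882% to 0.0119%. Of 8 cholangiocyte markers, 3 were above the floor in every library, their summed level was 35.1 to 63.2 CPM and then 46.9 to 58.7 CPM, and 1 of the 3 tested was higher. None of 8 neutrophil markers was above the floor in every library and 3 were at 0 in all, and their summed level was 0.0904 to 0.409 CPM at 0 h and 0.594 to 1.06 CPM at 48 h (exact permutation p = 0.1). The part of other cells in the changes of the transporters was not tested.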

How the data were processed

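Bulk RNA-Seq of 3 hepatocyte preparations at each of 0 h and 48 h after PHx was used. The authors deposited raw read counts per GENCODE gene for each library, and their processing notes name FastQC 0.11.5, Trim Galore 0.6.4, STAR 2.6, HTSeq 0.12.4 and DESeq2 with mm10. The strand and multi-mapping settings of counting are not given in the sources used here. HTSeq's summary lines were left out of library sizes. Reads in no gene were 24.3% to 32.7% and ambiguous reads 4.27% to 5.29%. These shares were taken of the sum of gene counts, reads in no gene and ambiguous reads.

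Groups were taken from the labels. A gene entered the test if 3 or more libraries held 10 or more of its counts. The fit was made in edgeR 4.0.16 under R 4.3.3 (TMM factors 0.913 to 1.11, quasi-likelihood test, time point as the only term, Benjamini-Hochberg over 17037 genes, 0.05), and the code was tested on simulated data. The SE is the log2 fold change divided by the root of the F statistic. CPM are TMM-normalized. TPM used union exon length and served for levels between genes, since TPM and TMM-normalized CPM scale the time points differently. Replicates differed by more than counting noise (mean chi-square per gene 25.8 to 76.1). Replicate numbers were not used to pair libraries. The floor covers counting error only. Alternatives were RLE, upper quartile and library size scaling, DESeq2 1.42.0, limma-voom 3.58.1, other count filters, a replicate block and leaving out each library. The members and lists were chosen with earlier results of these data known. Values in every library are given for members with a log2 fold change of at least 1 past the threshold and for the 5 with the highest TPM, and for others where space allowed. Up to 3 called genes in each direction per list were named, plus genes of the same amino acid.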

Additional observations from a re-analysis of the deposited data

How the results depend on the processing

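Of the 30 tested transporters, 21 kept their call and direction in all alternatives that tested them. Slc7a6, Slc7a1 and Slc38a1 were not tested at a minimum of 50 counts, so the rise of Slc7a6 has no value there. DESeq2 and limma-voom gave 8 higher and 14 lower as in the edgeR fit, and over all alternatives the counts ranged from 7 to 10 higher and from 11 to 15 lower. Scaling by library size alone shifted the median log2 fold change of all genes by 0.20, gave 5309 genes higher and 2108 lower (71.6% of calls higher, against 52.5%), turned the sign of Slc1a2 (0.18), Slc38a10 (0.14) and Slc43a3 (0.091), none of which was called, and ended the calls of Slc36a1, Slc7a2 and Slc16a10 (adjusted p = 0.39, 0.0617 and 0.132), while Slc7a1 and Slc7a7 passed (0.0476 and 0.0382). It also gave 6 higher and 3 lower mTORC1 sensing genes. Upper quartile scaling gave 1 mTORC1 sensing gene and 3 glutamine and glutamate enzymes higher and called Slc3a2 lower (adjusted p = 0.0189), as did a minimum of 50 counts (0.0412), and without a filter 1 mTORC1 sensing gene was higher.

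With the replicate number as a block, 8 members were higher and 13 lower, Slc36a1 being lost (adjusted p = 0.0756), and 1 mTORC1 sensing gene and 3 glutamine and glutamate enzymes were higher. The block changed no other call among the members. The deviations of same-numbered libraries correlated at 0.038, -0.11 and -0.18, so not every library went best with its own number, and the labels tie the numbers to no mouse or day.

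Leaving out 1 library at a time gave 8 to 9 members higher and 12 to 13 lower, with Slc1a2 between -0.20 and 0.16 (reversed without 0 h replicate 2 at 0.16 and without 48 h replicate 1 at 0.11). Slc7a7 passed without 0 h replicate 2 (adjusted p = 0.0436). The higher counts ranged from 0 to 2 for mTORC1 sensing genes, with 0 left without 0 h replicate 3, and from 2 to 4 for glutamine and glutamate enzymes, with 2 left without 48 h replicate 2 or 3. The lower count of mitochondrial carriers ranged from 1 to 2, with 2 without 0 h replicate 2 or 48 h replicate 1. The causes of these shifts were not tested. Depth limited Slc7a6, with 4 to 10 counts a library at 0 h, and the 5 members too low to be tested.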
